A study of Mus musculus with 2 samples.

Results

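The nuclear-encoded genes of the respiratory chain and of ATP synthase were followed in mouse ovary sections at 2 ages. Members were the genes whose names start with Ndufa, Ndufb, Ndufc, Ndufs, Ndufv, Sdha to Sdhd, Uqcr, Cox4i, Cox5, Cox6, Cox7, Cox8 or Atp5, without names that hold -ps and without the Ndufaf assembly factors. These prefixes named 82 genes among the 22204 genes of the count tables. Of them, 79 had at least 20 counts in 1 section and are called members, among 12586 genes that met this minimum. They were 36 genes of complex I, 4 of complex II, 8 of complex III, 15 of complex IV and 16 of complex V, with Ndufa4 counted in complex IV, where its protein is now placed. Too few counts were found for Cox6a2 (9 young and 2 old counts), Cox8b (1 and 3) and Ndufa4l2 (11 and 4). The member nearest to this minimum was Cox4i2, with 19 and 22 counts. The series measured RNA by Slide-seq, in which a frozen section is laid on beads that each carry a barcode and a known position. The young group was a C57BL6/J female of 2 months and the old group a C57BL6/J female of about 14 months, each with 1 ovary section and 1 library here. Per the labels, 4 sections of 10 µm came from 2 females at each age, placed on arrays after planes with several oocytes had been picked, and the other sections are not analysed here. No genotype other than the strain and no treatment was given for either group. Age, animal, plane of section and library therefore cannot be told apart, and no test between the ages was possible.

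The respiratory chain passes electrons from metabolic fuels to oxygen and pumps protons across the inner mitochondrial membrane, and ATP synthase uses the return of these protons to make ATP. Complex I takes electrons from NADH and complex II from succinate, complex III hands them to cytochrome c, complex IV passes them to oxygen, and complex V is ATP synthase. Most subunits are encoded in the nucleus and imported, while a small core is encoded by mitochondrial DNA. In the ovary, mitochondria also carry out the first step of steroid synthesis in theca and luteal cells, and oocytes hold large stores of mitochondria.

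The young section had 5158314 counts on 21403 beads (median 153 per bead) and the old one 2348768 counts on 10267 beads (median 125), and 0 bead barcodes were shared. Levels are given in CPM, the counts of a gene or list per 1000000 counts of the section or region. Each ratio stands with its 95% Clopper-Pearson interval in brackets, which covers counting error only and not the spread between animals. A gene was called higher or lower by size alone, at 1.5-fold. For position, beads were pooled into squares with sides of 5 bead spacings, and squares of at least 500 counts were kept as bins (1338 young and 895 old ones). A bin can hold several cells of different types. Bins were ranked by the share of their counts in a marker list, and the 20% highest in a list, here called its zone, was set against all other bins. The lists hold no member. Markers of the ovary's cell types were present in both sections in different amounts: the oocyte list was at 3102 CPM in the young and 246 CPM in the old section, the granulosa list at 10104 and 2626 CPM, the luteal list at 3165 and 4696 CPM and the periovulatory list at 29.9 and 1611 CPM. The part of this difference in cell makeup in the section-wide ratios below was not tested.

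Genes of the chain are known to share promoter motifs for the factors NRF1, YY1, ESRRA and GABPA, the last an ETS factor. RefSeq promoter windows (GRCm38.p6, 250 bases before to 50 after the start) were at hand for 66 of the 79 members. The NRF1 core GCGCATGCG, on either strand, was in 7 of 66 member windows (10.6%) and 362 of 9822 windows of all genes with enough counts (3.69%). For the YY1 motif AAGATGGCG the counts were 6 of 66 member windows (9.09%) and 323 of 9822 windows of all genes with enough counts (3.29%), and for the ESRRA motif TCAAGGTCA 2 of 66 member windows (3.03%) and 25 of 9822 windows of all genes with enough counts (0.255%). The ETS motif CCGGAAG was in 16 of 66 member windows (24.2%) and 1832 of 9822 windows of all genes with enough counts (18.7%). A stretch of 180 bases is given for Atp5k, Cox6a1 and Ndufa11, chosen after their values were seen because they hold the same NRF1 match and lay on either side of 1 between the sections, and for Atp5g3, which holds the ESRRA match and differed by position from its isoform Atp5g1. Each runs 5′ to 3′ in the direction of the gene, with the match in capitals. The capitals in the first 3 cover overlapping matches on both strands, and those in Atp5g3 a match on the opposite strand. The first 3 stretches end at the start of the gene, while that of Atp5g3 lies inside the annotated gene, before the start that its RefSeq window uses. The stretches lie at chr5:108434400-108434579 on the minus strand, chr5:115348959-115349138 on the minus strand, chr17:56717582-56717761 on the plus strand and chr2:73911327-73911506 on the minus strand.
Atp5k: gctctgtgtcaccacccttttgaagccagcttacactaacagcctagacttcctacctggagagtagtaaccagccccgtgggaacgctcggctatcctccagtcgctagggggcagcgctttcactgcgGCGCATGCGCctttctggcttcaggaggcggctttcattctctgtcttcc
Cox6a1: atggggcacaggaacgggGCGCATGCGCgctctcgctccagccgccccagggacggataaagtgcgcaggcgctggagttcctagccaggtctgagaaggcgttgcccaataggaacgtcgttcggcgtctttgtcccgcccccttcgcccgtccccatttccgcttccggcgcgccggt
Ndufa11: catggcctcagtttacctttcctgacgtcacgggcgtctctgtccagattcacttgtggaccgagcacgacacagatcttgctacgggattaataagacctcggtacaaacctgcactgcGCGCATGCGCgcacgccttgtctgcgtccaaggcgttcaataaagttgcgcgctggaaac
Atp5g3: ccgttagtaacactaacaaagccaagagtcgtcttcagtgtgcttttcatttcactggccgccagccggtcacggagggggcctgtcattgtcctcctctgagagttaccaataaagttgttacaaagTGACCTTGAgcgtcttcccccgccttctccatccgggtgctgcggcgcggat
The old/young ratio was 1.37 (1.20 to 1.57) for Atp5k, subunit e of ATP synthase, 0.577 (0.535 to 0.620) for Cox6a1, the widely expressed form of complex IV subunit 6A, and 0.563 (0.493 to 0.641) for Ndufa11, a membrane-arm subunit of complex I. These 3 genes were chosen to lie on both sides of 1, so that spread is not a result. The other members with the NRF1 match were Atp5l (0.811), Ndufa8 (0.883), Uqcr11 (0.987) and Uqcrc1 (1.34). A match is a description of the sequence, not a measured binding site.

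Summed over the 79 members, the young section held 18743 CPM (96680 counts) and the old section 17266 CPM (40553 counts), an old/young ratio of 0.921 (0.911 to 0.932). The old section was lower by a small margin, and fewer cells of a type and less RNA per cell cannot be told apart in these sums. Of the 79 members, 6 were at least 1.5-fold higher in the old section, where 22.6% of all genes were, and 15 at least 1.5-fold lower, where 25.4% were. As shares of the members, both counts are below those of all genes. The shares of all genes, here and below, include genes near the minimum of 20 counts, whose ratios scatter more by counting error. They were not matched to the members in level, so a lower share of members is not by itself a result. The median member ratio was 0.931, with quartiles of 0.738 and 1.21, against 0.988 (0.660 and 1.44) over all genes. The counting interval lay wholly above 1 for 23 members, wholly below for 36 and across 1 for 20. The members thus did not differ as a block, with genes on both sides of 1, from Cox7a2l at 0.362 to Cox4i2 at 2.54. Complex III was the one complex whose sum was higher in the old section, at 1.14 (1.10 to 1.17). The other sums were 0.866 (0.850 to 0.883) for complex I, 0.915 (0.867 to 0.965) for complex II, 0.901 (0.879 to 0.923) for complex IV and 0.947 (0.923 to 0.971) for complex V. In the makeup of the members' counts, complex III took 10.2% in the young against 12.6% in the old section and complex I 40.4% and 38.0%.

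**Figure D1:**
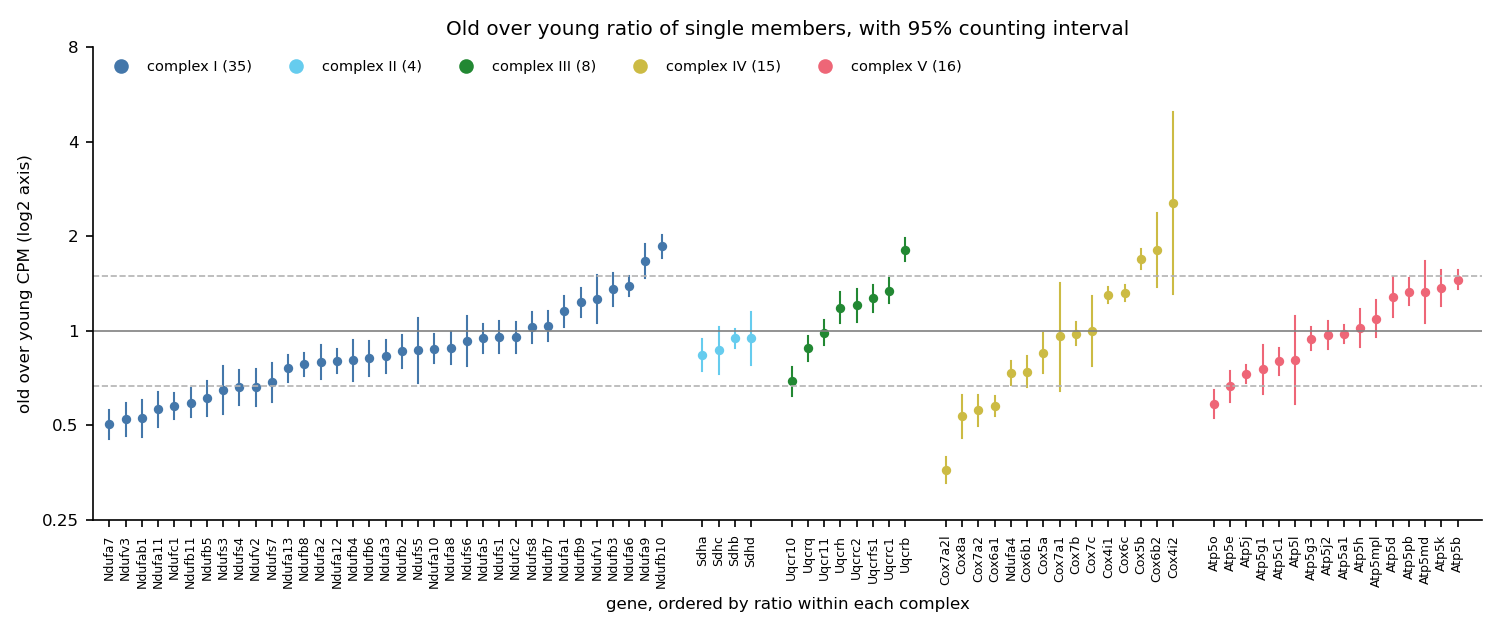
Old over young CPM of 78 of the 79 members on a log2 axis, coloured by complex, with lines for the 95% counting interval and dashed lines at 1.5-fold in either direction. Complex I genes lie mostly below 1, while 5 of 8 complex III genes lie above it, and Cox7a2l is the lowest member.

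Complex I, the NADH dehydrogenase and the largest of the complexes, was lower in the old section at 6559.6 against 7571 CPM. Of its 36 members, 2 were at least 1.5-fold higher and 10 at least 1.5-fold lower, against 22.6% and 25.4% of all genes. The share of lower genes is thus close to that of all genes, and the median ratio was 0.846. Ndufa6, a small subunit near the junction of the arms and one of the most abundant members here, was at 355 CPM (1830 counts) in the young and 493 CPM (1159 counts) in the old section. The old section was higher for it, with a ratio of 1.39 (1.29 to 1.50). Ndufb8, a membrane-arm subunit, was at 413 CPM (2132 counts) in the young and 324 CPM (760 counts) in the old section, lower in the old section at 0.783 (0.720 to 0.851). The highest ratio was that of Ndufb10, also of the membrane arm, at 232 CPM (1195 counts) in the young and 430.4 CPM (1011 counts) in the old section, which is 1.86 (1.71 to 2.02). The lowest was that of Ndufa7, an accessory subunit of the matrix arm, at 377 CPM (1945 counts) in the young and 189.9 CPM (446 counts) in the old section, or 0.504 (0.453 to 0.558). Single genes of this complex thus lay more than 1.5-fold from 1 in both directions. The other member at least 1.5-fold higher was Ndufa9, an accessory subunit of the matrix arm beside the quinone site, at 1.67 (1.47 to 1.89). The other members at least 1.5-fold lower were Ndufv3 (0.522), Ndufab1 (0.526), Ndufa11 (0.563), Ndufc1 (0.576), Ndufb11 (0.590), Ndufb5 (0.610), Ndufs3 (0.649), Ndufs4 (0.661) and Ndufv2 (0.662). Ndufab1 among them is also the acyl carrier protein of mitochondrial fatty acid synthesis. Genes named here and below outside the most abundant and the extreme members of each complex and the isoform families were chosen after their values were seen.

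Complex II, the succinate dehydrogenase shared with the citric acid cycle, has no mitochondrially encoded subunit. Its genes spanned the narrowest range of the complexes, 0.837 to 0.949. Sdhb, the iron-sulphur subunit, was at 526 CPM (2711 counts) in the young and 498 CPM (1170 counts) in the old section, a ratio of 0.948 (0.884 to 1.02). Sdha, the flavoprotein that oxidises succinate, had the lowest ratio of the 4, with 199.9 CPM (1031 counts) in the young and 167 CPM (393 counts) in the old section, or 0.837 (0.743 to 0.941). The membrane anchors Sdhc and Sdhd were at 0.869 (0.729 to 1.03) and 0.949 (0.781 to 1.15). All 4 ratios were below 1, and only the interval of Sdha left out 1.

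Complex III, the cytochrome bc1 complex, was at 1913 CPM in the young and 2173 CPM in the old section. 1 of its 8 members was at least 1.5-fold higher and 0 were at least 1.5-fold lower, both below the 22.6% and 25.4% of all genes. The one higher gene was Uqcrb, a small subunit needed for assembly of the complex, at 241 CPM (1244 counts) in the young and 437 CPM (1027 counts) in the old section, a ratio of 1.81 (1.67 to 1.97). Without it the sum of the complex had a ratio of 1.04, so most of the excess lay in that gene. The core proteins Uqcrc1 and Uqcrc2 were at 1.34 (1.23 to 1.47) and 1.21 (1.07 to 1.36), and Uqcrfs1, the Rieske iron-sulphur protein that passes electrons on, at 1.27 (1.15 to 1.40). These 3 intervals also lay above 1. Uqcrq, a small membrane subunit, was at 326 CPM (1682 counts) in the young and 287 CPM (673 counts) in the old section, or 0.879 (0.802 to 0.961). The lowest ratio was that of Uqcr10, a small subunit, with 301 CPM (1552 counts) in the young and 208 CPM (488 counts) in the old section, or 0.691 (0.622 to 0.765).

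Complex IV, the cytochrome c oxidase, held the widest spread, from 0.362 to 2.54, and 1.5-fold was reached by 3 genes upward and 4 downward of 15. The upper end was the sparse Cox4i2, with 19 young and 22 old counts, and the next highest was Cox6b2 at 1.81. The shares past 1.5-fold are close to the 22.6% and 25.4% of all genes. Cox6c, a small membrane subunit, was at 606 CPM (3126 counts) in the young and 799 CPM (1876 counts) in the old section, a ratio of 1.32 (1.24 to 1.40). Cox4i1, the widely expressed form of subunit 4, which takes part in the enzyme's regulation by ATP, was at 596 CPM (3076 counts) in the young and 775 CPM (1821 counts) in the old section, or 1.30 (1.23 to 1.38). Both abundant genes were thus higher in the old section. Cox5b, a subunit on the matrix side, was also higher, at 1.69 (1.57 to 1.82), while its partner in name Cox5a was at 0.852 (0.735 to 0.984). Cox7a2l had the lowest ratio of all members, at 593 CPM (3061 counts) in the young and 215 CPM (504 counts) in the old section, or 0.362 (0.328 to 0.397). Its protein is known for a role in joining complexes III and IV into supercomplexes, and that role was not examined in these mice. Leaving it out moved the summed ratio of the members to 0.939 (0.929 to 0.951). The other lower genes were Cox8a at 0.535 (0.455 to 0.627), Cox7a2 at 0.558 (0.497 to 0.626) and Cox6a1 at 0.577 (0.535 to 0.620), each the widely expressed form of its subunit. Ndufa4 was at 396 CPM (2043 counts) in the young and 291 CPM (683 counts) in the old section, or 0.734 (0.672 to 0.801).

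Tissue-restricted forms of complex IV subunits were sparse. Cox6b2, first known from testis, was at 24.0 CPM (124 counts) in the young and 43.4 CPM (102 counts) in the old section, a ratio of 1.81 (1.38 to 2.37), while its widely expressed counterpart Cox6b1 was at 247 CPM (1272 counts) in the young and 183 CPM (430 counts) in the old section, or 0.742 (0.664 to 0.829). The intervals of this pair thus lay on opposite sides of 1. Cox4i2, a form of subunit 4 known from lung and low oxygen, had 19 young and 22 old counts, a ratio of 2.54 (1.31 to 4.97). This ratio moved with the choice of bins, to 1.84 with bins weighted equally, 4.13 without the young quadrant of low x and high y, and 10.4 in bins of 2000 to 4000 counts. Cox7a1, the heart and skeletal muscle form of subunit 7A, was at 17.3 CPM (89 counts) in the young and 16.6 CPM (39 counts) in the old section, or 0.962 (0.643 to 1.42), an interval that spans 1. Counts were too few to rank the ages for Cox6a2, Cox8b and Ndufa4l2.

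Complex V, ATP synthase, was at 3944 CPM in the young and 3733 CPM in the old section, and of 16 members 0 passed 1.5-fold upward and 1 downward, where 22.6% and 25.4% of all genes did. The 5 genes of its catalytic head and central stalk (Atp5a1, Atp5b, Atp5c1, Atp5d and Atp5e) had a summed ratio of 1.02 (0.983 to 1.06), with a median gene at 0.975 on the other side of 1, and the other subunits one of 0.895 (0.866 to 0.925). Atp5b, the catalytic beta subunit, had the highest ratio, with 375 CPM (1934 counts) in the young and 545 CPM (1281 counts) in the old section, or 1.45 (1.35 to 1.56). Atp5a1, the alpha subunit that sits beside it in equal number, was at 565 CPM (2914 counts) in the young and 551 CPM (1294 counts) in the old section, or 0.975 (0.913 to 1.04). The pair that forms the ring of the head therefore differed, with the interval of Atp5b above 1 and that of Atp5a1 across it. Atp5j, the coupling factor of the peripheral stalk, was at 678 CPM (3498 counts) in the young and 494 CPM (1160 counts) in the old section, lower in the old section at 0.728 (0.681 to 0.779). Atp5o, the subunit that ties this stalk to the head, was the lowest, at 343 CPM (1768 counts) in the young and 201 CPM (471 counts) in the old section, or 0.585 (0.527 to 0.648). Atp5g1 and Atp5g3 encode the same mature c subunit of the proton-turned rotor with different import sequences, and their ratios were 0.756 (0.631 to 0.903) and 0.945 (0.869 to 1.03).

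The mitochondrially encoded partners that were counted differed more between the sections than the nuclear genes did. Of 13 such genes, 7 had at least 20 counts in 1 section. They were mt-Nd1, mt-Nd2, mt-Nd4, mt-Nd5 and mt-Nd6 of complex I, mt-Cytb of complex III and mt-Co1 of complex IV. The others, among them mt-Co2, mt-Co3 and both complex V genes, had fewer counts or none, and the cause was not tested. The 7 genes, mostly of complex I, summed to 10637 CPM in the young and 6041 CPM in the old section, a ratio of 0.568 (0.557 to 0.579). For each count of these genes there were 1.76 counts of nuclear members in the young section, and 2.86 such counts in the old one. 5 of the 7 were at least 1.5-fold lower and 0 higher, from mt-Nd5 at 1708 CPM in the young and 350.0 CPM in the old section, a ratio of 0.205 (0.191 to 0.220), to mt-Nd2 at 1437 CPM in the young and 1431 CPM in the old section, a ratio of 0.995 (0.955 to 1.04). The list was therefore not uniform, and the interval of mt-Nd2 spanned 1. Of all genes, 25.4% were at least 1.5-fold lower and 22.6% at least 1.5-fold higher, for this list and those that follow. Among other genes that serve the chain, assembly factors had a summed ratio of 0.968 (0.936 to 1.00) and a median of 0.792, with 8 of 46 higher and 14 lower. Both counts of assembly factors were not far from the shares of all genes. Surf1, a complex IV assembly factor, was the highest at 44.8 CPM in the young and 91.1 CPM in the old section, a ratio of 2.03 (1.68 to 2.46), and Nubpl, which delivers iron-sulphur clusters to complex I, the lowest at 7.95 CPM in the young and 2.13 CPM in the old section, a ratio of 0.268 (0.0826 to 0.677). Electron carriers and quinone synthesis genes had a summed ratio of 0.968 (0.927 to 1.01), with 2 of 13 higher and 3 lower, from Cycs, cytochrome c, at 0.369 (0.221 to 0.589) to Coq10b at 1.67 (1.10 to 2.51).

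Regulators of these genes had a summed ratio of 1.12 (1.04 to 1.19), with 3 of 13 higher and 1 lower. Of all genes, 22.6% were higher and 25.4% lower by this size, for these and the lists below. Tfb2m, a mitochondrial transcription factor, stood at 2.07 (1.44 to 2.96) and Gabpb1, the partner of GABPA, at 0.615 (0.492 to 0.764). The citric acid cycle list, which feeds the chain, was at 1.03 (0.993 to 1.07) with 2 of 17 higher and 1 lower. Its median gene was at 0.949, on the other side of 1. The genes ran from Suclg2, a subunit of succinyl-CoA ligase, at 0.522 (0.379 to 0.707) to Dlst, of the oxoglutarate dehydrogenase complex, at 1.60 (1.40 to 1.83). Membrane carrier genes were at 1.17 (1.14 to 1.20), with 3 of 13 higher and 2 lower. Slc25a3, the phosphate carrier that supplies ATP synthase, was at 1.93 (1.80 to 2.06) and Vdac3, an outer-membrane channel, at 0.426 (0.373 to 0.486). Mitochondrial ribosomal protein genes were at 0.905 (0.887 to 0.923), close to the members, with 9 of 76 higher and 19 lower. Cytosolic ribosomal protein genes were at 0.940 (0.930 to 0.951), but their median gene was at 1.27, on the other side of 1.

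**Figure D2:**
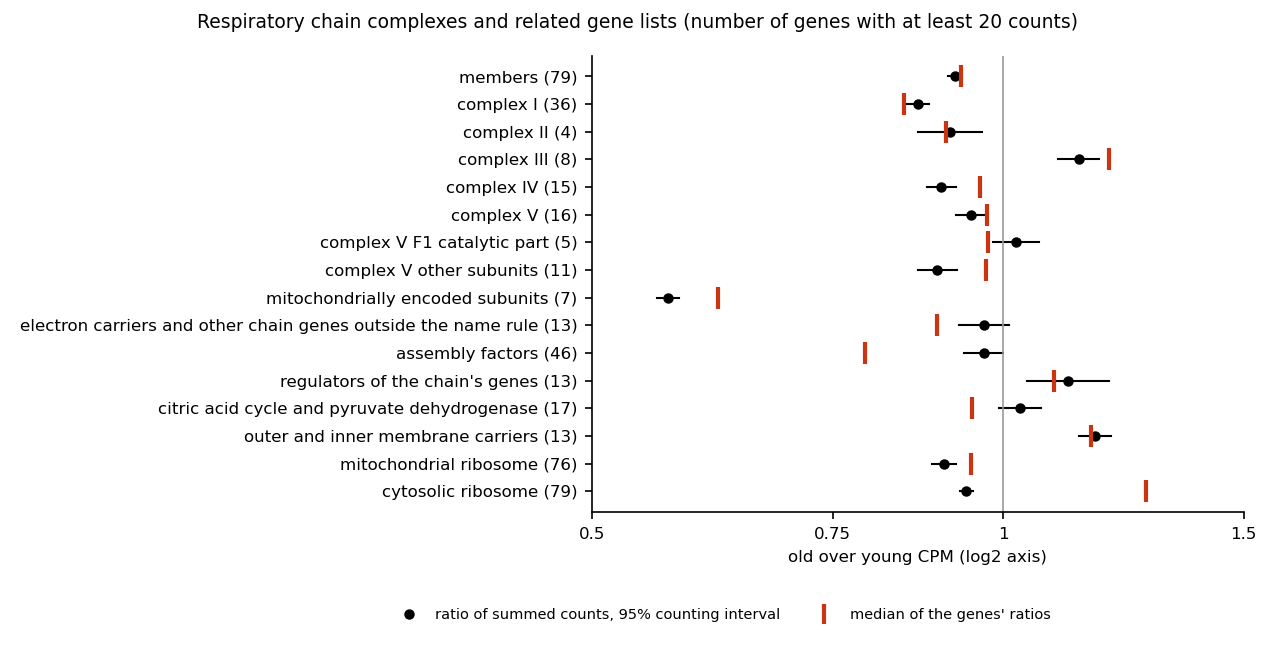
Old over young ratio of summed counts (points, with 95% counting interval) and of the median gene (red bars) for the members, their complexes and related gene lists, on a log2 axis, with the number of genes in brackets. Mitochondrially encoded subunits lie lowest, at 0.568, and complex III is the one complex above 1.

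The direction by complex was then followed within the zones of the same marker list in both sections. A zone is a fixed share of the bins, whatever the level of its list, so the zones are not matched cell types. The theca and interstitial list was at 19707 CPM in its young and 2937 CPM in its old zone, and the granulosa list at 25683 and 5385 CPM. The luteal list, at 12069 and 13216 CPM, and the steroid-forming list, at 38600 and 54167 CPM, were higher in the old zone. In the zones of marker lists, which could be set up in both sections for 9 lists, the old/young ratio of the members was below 1 for 8 lists and above 1 for 1. The list above 1 was the luteal one, at 1.10 (1.07 to 1.13), and the lowest value was that of the smooth muscle list, at 0.851 (0.826 to 0.876). Complex I was below 1 for 8 lists and complex III above 1 for 8, with a range of 0.984 to 1.23. The complex III interval lay above 1 for the granulosa, luteal, steroid-forming and red blood cell lists. It spanned 1 for all other lists, with smooth muscle at 1.00 (0.916 to 1.09). Mitochondrially encoded genes were below 1 for 9, from 0.421 to 0.671. These zones overlap between lists and are not separate samples. Each section also varied within itself: members ranged from 16891 to 20885 CPM over the 4 quadrants of the young section and from 15282 to 20749 CPM over those of the old one, so the ranges overlapped. At matched bin depth the members' ratio was 0.774 (0.729 to 0.821) in bins of 500 to 1000 counts, 0.810 (0.786 to 0.835) at 1000 to 2000, 0.935 (0.917 to 0.953) at 2000 to 4000 and 0.863 (0.847 to 0.880) above. It was below 1 at each depth, as were complexes I, IV and V. Complex III was at 0.910 (0.760 to 1.09), 0.989 (0.904 to 1.08), 1.14 (1.08 to 1.21) and 1.09 (1.03 to 1.15) in the same order, so it was above 1 only in the bins of 2000 counts or more, and in the shallower bins its intervals spanned 1. Complex II was at 1.02 (0.753 to 1.38) in the shallowest of these bins and below 1 in the others.

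Within each section the members' level followed the depth of the bins and the tissue edge. With bins split by depth into 5 classes of equal number, members were at 24933 CPM in the shallowest and 16976 CPM in the deepest class of the young section, and at 21164 and 15415 CPM in those of the old one. Mitochondrially encoded genes in the same young classes were at 11490.4 and 8273 CPM, and at 14450.3 CPM in the class next to the shallowest. Single bins ranged from 11444 to 34604 CPM (5th to 95th percentile) in the young and from 11120.5 to 28980.5 CPM in the old section. Bins within 2 bins of the tissue edge held 24629 CPM of members in the young section, against 17981 CPM further in, a ratio of 1.37 (1.34 to 1.40). Those of the old section held 19368 against 16672 CPM, or 1.16 (1.13 to 1.19). The rim was thus richer in members in both sections. In the young section 24 of 78 members were at least 1.5-fold higher at the rim, where 11.7% of all genes were, and 0 at least 1.5-fold lower, where 18.2% were. 77 of 78 lay above 1, with a median of 1.37 against 0.978 over all genes.

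At the old rim 11 of 79 members were higher and 2 lower by that size, against 12.6% and 15.1% of all genes, and the median was 1.19 against 1.01 over all genes. The count of higher members there was near the share of all genes. Mitochondrially encoded genes went the other way, at 0.907 (0.880 to 0.934) in the young and 0.948 (0.906 to 0.992) in the old section, and cytosolic ribosomal protein genes went with the members, at 1.35 (1.33 to 1.38) and 1.20 (1.17 to 1.23). By complex, complex IV was highest at the young rim at 1.48 (1.42 to 1.54) and complex II lowest at 1.15 (1.05 to 1.27). Sdha was the one member below 1 there, with 184 CPM (88 counts) against 203 CPM (934 counts) further in, or 0.907 (0.720 to 1.13). The highest was Cox7a1, with 39.6 CPM (19 counts) against 14.5 CPM (67 counts), or 2.73 (1.55 to 4.60), and in the old section Atp5g1, at 1.93 (1.33 to 2.76). The rim was shallower, with a median of 1413 counts per bin against 3435 in the young and 1563 against 2184 in the old section. Within classes of bin depth the ratio was 1.27 at the young rim and 1.13 at the old rim, still above 1 among bins of like depth.

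**Figure D3:**
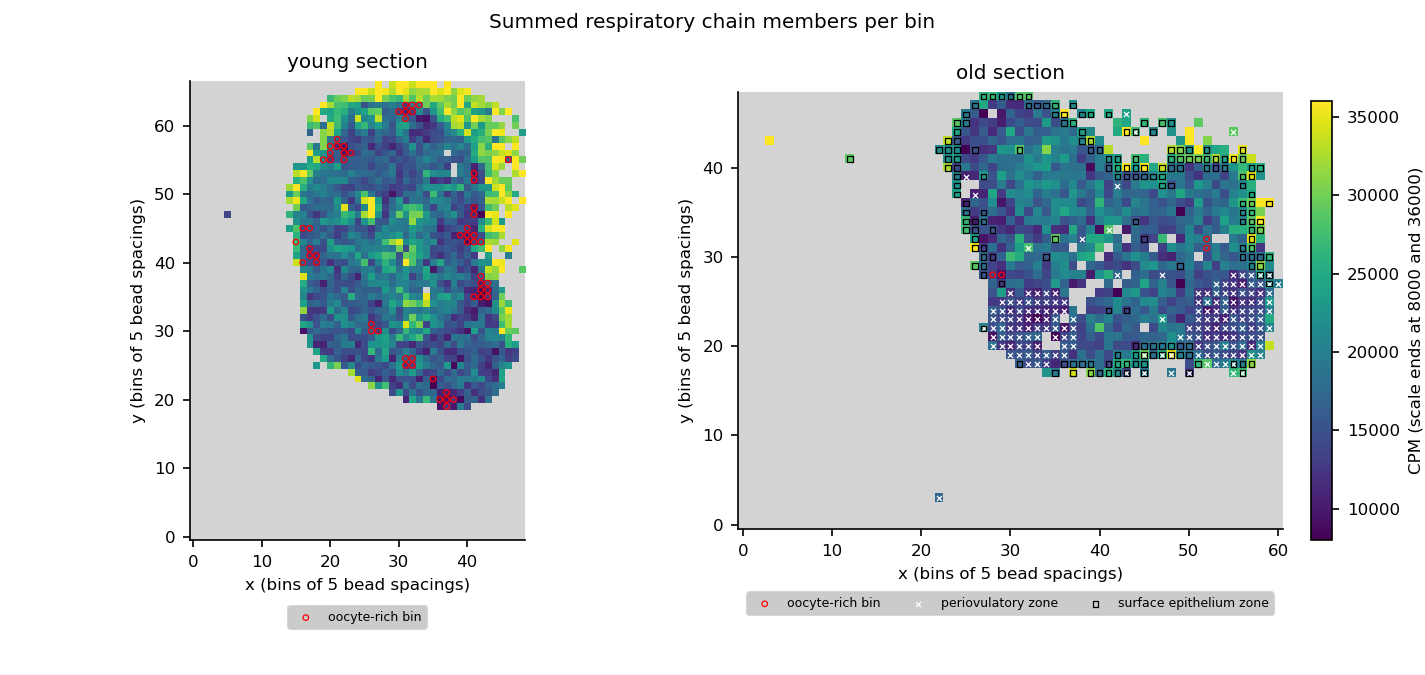
Summed members per bin in CPM (colour) over the young and the old section, with axes in bins of 5 bead spacings. Circles mark oocyte-rich bins, crosses the periovulatory zone of the old section and squares its surface epithelium zone. The rim is brighter in both sections (24629 CPM in the young), oocyte-rich bins are darker, and the periovulatory bins form darker fields at 14124 CPM.

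In the bins richest in oocyte transcripts the members were low. Bins with at least 10 counts and 1% of their counts in the oocyte list, here called oocyte-rich, came to 58 young and 4 old ones. In the young ones the members were at 12591 CPM against 19296 CPM in all other bins, a ratio of 0.653 (0.636 to 0.669). In the old ones they were at 13156 against 17164 CPM, or 0.767 (0.673 to 0.870). The level was higher with distance from these bins in the young section, with 18287 CPM within 10 bead spacings, 19528 CPM from there to 20 and 19574 CPM beyond. Each complex was lower, between 0.585 (0.517 to 0.660) for complex II and 0.681 (0.647 to 0.716) for complex IV, and mitochondrially encoded genes were lower still at 0.540 (0.520 to 0.559). Of 78 members with at least 20 counts in bins, 42 were at least 1.5-fold lower, where 37.1% of all genes were, and 1 was higher, where 24.2% were. Their median was 0.641 against 0.846 over all genes. Cytosolic ribosomal protein genes were as low in these bins, at 0.642 (0.626 to 0.657), and mitochondrial ribosomal protein genes less so, at 0.894 (0.860 to 0.928). Oocyte-rich bins were deep, with a median of 8562 counts, and the members' ratio within classes of bin depth was 0.686 for the young and 0.810 for the old bins. Mitochondrially encoded genes were at 0.653 in the young bins within these classes. Complexes II, III and V were level with them there, at 0.653, 0.654 and 0.658. The wider young oocyte zone had a ratio of 0.909 (0.895 to 0.923), and it turned to 1.03 when each bin was thinned to 500 counts.

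The one member higher in oocyte-rich bins was Cox6b2, with 59.3 CPM (31 counts) against 20.1 CPM (92 counts), a ratio of 2.95 (1.89 to 4.47). Cox6b1 in the same bins was at 147 CPM (77 counts) against 253 CPM (1157 counts), or 0.582 (0.456 to 0.733). The isoforms of subunit 6B were thus placed in opposite ways. In the 4 old oocyte-rich bins Cox6b2 had 4 counts, a ratio of 5.18 (1.38 to 13.7), and Cox6b1 had 0, where the floor of 3 counts allows up to 164 CPM. Of the sparse Cox6a2, the striated muscle form of subunit 6A, 4 of 9 young counts fell in oocyte-rich bins, a ratio of 6.99 (1.39 to 32.5), and Cox6a1 was at 0.508 (0.436 to 0.589). Atp5g3 was at 161 CPM (84 counts) against 379.8 CPM (1736 counts), or 0.423 (0.336 to 0.527), while Atp5g1 was level at 0.992 (0.722 to 1.33). The intervals of these genes for the same c subunit did not overlap. Cox5a was the other member whose interval lay above 1, at 1.28 (1.01 to 1.61). Members named for their place, other than the isoform pairs and the luteal extremes, were chosen after their values were seen.

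Steroid-forming regions stood out for complex II. In the steroid-forming zone, members were at 20251 against 18309.6 CPM in the young section, a ratio of 1.11 (1.09 to 1.13), and at 19163 against 16644 CPM in the old, or 1.15 (1.12 to 1.18). Complex II was at 1.45 (1.35 to 1.56) and 1.35 (1.21 to 1.50), the highest of the complexes in both. Complex V was at 1.04 (1.01 to 1.08) and 1.15 (1.09 to 1.21), and complex IV at 1.07 (1.04 to 1.11) and 1.08 (1.03 to 1.14). The catalytic subunits were higher: Sdhb was at 778 CPM (609 counts) against 477 CPM (2058 counts) in the young section, a ratio of 1.63 (1.49 to 1.79), and at 1.38 (1.21 to 1.59) in the old. Sdha was at 1.38 (1.18 to 1.61) and 1.68 (1.33 to 2.10). The intervals of the anchors spanned 1, with Sdhc at 1.01 (0.774 to 1.30) and 0.901 (0.595 to 1.33) and Sdhd at 1.00 (0.738 to 1.34) and 0.951 (0.613 to 1.43). In the old zone these intervals overlapped that of Sdhb. Mitochondrially encoded genes were higher than any complex, at 1.98 (1.94 to 2.01) and 1.54 (1.48 to 1.60). Counted one by one, 1 of 78 members was at least 1.5-fold higher and 0 lower in the young section, against 10.4% and 27.2% of all genes. In the old section they were 7 and 1 of 79, against 11.2% and 25.8%, so the higher count was near the share of all genes and the lower count below it. Sdhb was the one higher gene of the young section, and Sdha was among those of the old.

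The theca and interstitial list, which holds Cyp17a1, gave the same order in the young section, with complex II at 1.49 (1.39 to 1.60), all members at 1.08 (1.07 to 1.10) and mitochondrially encoded genes at 1.97 (1.93 to 2.00). This list was at 6429 CPM (33162 counts) in the young and 806 CPM (1893 counts) in the old section, so fewer counts ranked the old bins. In the old section complex II was at 1.39 (1.23 to 1.57) and all members at 1.07 (1.04 to 1.10). For all members this value turned to 0.982 within classes of bin depth, while complex II kept 1.31.

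Luteal regions differed between the sections. In the luteal zone, members of the young section were at 17275 CPM against 18897 CPM elsewhere, a ratio of 0.914 (0.899 to 0.930). Those of the old section were at 18977 against 16683 CPM, or 1.14 (1.11 to 1.17). The intervals lay on opposite sides of 1, and the difference itself was not tested. Within classes of bin depth the ratios were 0.896 and 1.13. In the young section 1 of 78 members was at least 1.5-fold higher and 1 lower, where 12.8% and 26.4% of all genes were. In the old section 12 of 79 were higher and 2 lower, against 11.4% and 26.0%, so that the count of higher members was near the share of all genes and the count of lower ones below it. The median member was at 0.930 (all genes 0.891) in the young and 1.09 (all genes 0.896) in the old section. Complex I was at 0.916 (0.891 to 0.941) and 1.17 (1.13 to 1.22), and complex V at 0.875 (0.842 to 0.909) and 1.15 (1.09 to 1.21). Mitochondrially encoded genes were at 1.07 (1.05 to 1.10) and 1.34 (1.29 to 1.40), but the young value turned to 0.975 within classes of bin depth.

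Of the isoforms that were members, Cox7a1 had the highest ratios in the luteal zone in both sections. It was at 27.6 CPM (25 counts) against 14.8 CPM (62 counts) in the young section, a ratio of 1.86 (1.12 to 3.01), and at 42.4 CPM (19 counts) against 9.75 CPM (18 counts) in the old, or 4.35 (2.16 to 8.78). Cox7a2, its widely expressed counterpart, was at 1.03 (0.901 to 1.18) and 1.21 (0.931 to 1.55). Both intervals of Cox7a1 lay above 1, and those of Cox7a2 spanned it. Among members with at least 50 counts in the zone, Ndufs5, an accessory subunit of complex I, was the highest in the young section at 1.36 (0.991 to 1.84) and Atp5o the lowest at 0.675 (0.583 to 0.777). In the old section the highest was Ndufc2, a membrane-arm subunit of complex I, at 1.70 (1.37 to 2.10), and the lowest Ndufb6, of the same arm, at 0.796 (0.580 to 1.07).

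Granulosa regions were close to the other bins in the sum. Members were at 1.01 (0.992 to 1.02) in the young and 1.03 (1.01 to 1.05) in the old granulosa zone, which was deeper than the other bins (median 5248 against 2814 counts in the young section), and at 1.09 and 1.08 within classes of bin depth. When each bin was thinned to 500 counts, the ratio was 0.955 for the young and 0.959 for the old section, and without the quadrant of low x and high y it was 0.888 for the young and 0.975 for the old one. The side of 1 thus depended on these choices. ATP synthase was the highest complex in the young zone, at 1.14 (1.11 to 1.18), with complex I at 0.982 (0.960 to 1.00) and complex IV at 0.964 (0.936 to 0.993). Within classes of bin depth these became 1.21, 1.06 and 1.04, in the same order for complex V against the others. 13 of 16 complex V genes were above 1, led by Atp5o at 1.38 (1.247 to 1.52) and Atp5a1 at 1.26 (1.17 to 1.36). The highest member there was Ndufs4, a complex I subunit needed for its assembly and stability, with 258 CPM (372 counts) against 168 CPM (614 counts), or 1.53 (1.34 to 1.75). Cox6b2 was the lowest at 0.491 (0.288 to 0.798), followed by Ndufb11, of the membrane arm of complex I, at 0.640 (0.565 to 0.724). Mitochondrially encoded genes were below 1 in both sections, at 0.748 (0.733 to 0.763) and 0.870 (0.835 to 0.905).

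**Figure D4:**
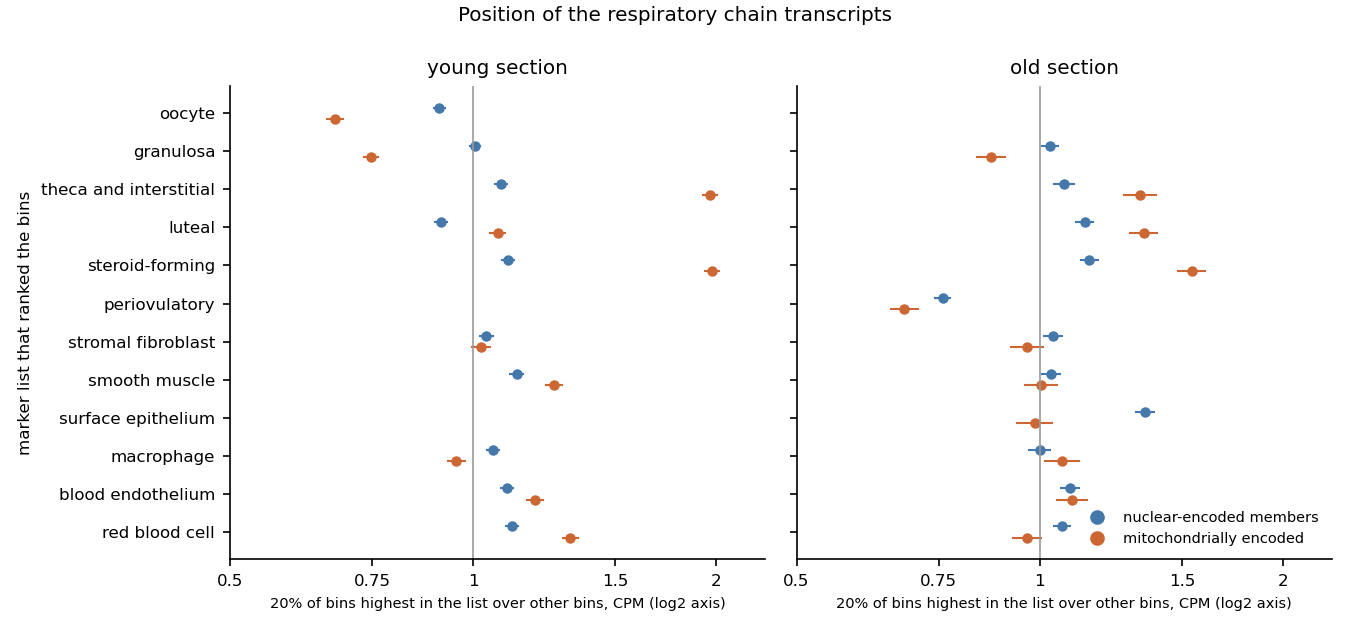
The 20% of bins highest in each marker list (its zone) over all other bins, for the summed nuclear-encoded members and for the mitochondrially encoded genes, in the young and the old section, on a log2 axis with 95% counting intervals. Mitochondrially encoded genes reach 1.98 in the young steroid-forming zone where members reach 1.11. Lists with too few counts to rank 20% of the bins have no point.

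The periovulatory zone, ranked by genes of the ovulatory response such as Ptgs2 and Adamts1, could be set up in the old section only, since the young section held 154 counts of the list. Members were at 14124 CPM there against 18633 CPM elsewhere, a ratio of 0.758 (0.741 to 0.775). 22 of 79 members were at least 1.5-fold lower, where 25.5% of all genes were, and 1 was higher, where 13.8% were. 53 had intervals wholly below 1 and 0 wholly above, and the median was 0.760 against 0.916 over all genes. The lower count was near the share of all genes. Complex II, at 0.690 (0.620 to 0.766), and complex I, at 0.719 (0.693 to 0.746), were lowest, and complex IV was at 0.751 (0.717 to 0.787). Complex V, at 0.819 (0.781 to 0.858), and complex III, at 0.815 (0.766 to 0.867), were closest to 1. Cox7a1 was the lowest member, with 3.93 CPM (3 counts) against 22.2 CPM (34 counts), or 0.177 (0.0347 to 0.562). Atp5c1, the rotating gamma subunit of ATP synthase, was at 144 CPM (110 counts) against 293 CPM (448 counts), or 0.492 (0.396 to 0.607). The higher member was the sparse Cox4i2, with 11 of its 20 counts in bins, at 2.45 (0.922 to 6.68), while Cox4i1 was at 0.737 (0.663 to 0.819). These bins were deeper than the rest (median 4004 against 1878 counts). Within classes of bin depth the ratio was 0.786, and it was 0.761 (0.726 to 0.798) among rim bins and 0.740 (0.722 to 0.759) further in.

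The surface epithelium zone, ranked by keratins and uroplakins, was also set up in the old section only, with 548 counts of the list in the young section. The old section held 1182 counts of the list over 895 bins, so few counts placed a bin in the zone. Of the zone's bins, 103 lay at the rim and 75 further in, so the zone is not surface tissue alone. Members were at 22101 CPM against 16381 CPM elsewhere, a ratio of 1.35 (1.31 to 1.39). 26 of 79 members were at least 1.5-fold higher, where 18.6% of all genes were, and 0 lower, where 19.5% were. The median was 1.34 against 1.02. Above 1 lay 30 of 36 complex I, 7 of 8 complex III and all 4 complex II genes. All 15 complex IV and all 16 complex V genes lay above 1 too. The highest were Atp5g1, with 139.6 CPM (42 counts) against 57.7 CPM (115 counts), or 2.42 (1.66 to 3.47), and Ndufa4, with 528 CPM (159 counts) against 252 CPM (503 counts), or 2.09 (1.74 to 2.51). The interval of mitochondrially encoded genes spanned 1, at 0.986 (0.937 to 1.04). This zone was shallow (median 1450 against 2249 counts). Within classes of bin depth the ratio was 1.27, among rim bins 1.29 (1.23 to 1.35) and further in 1.34 (1.29 to 1.39).

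**Figure D5:**
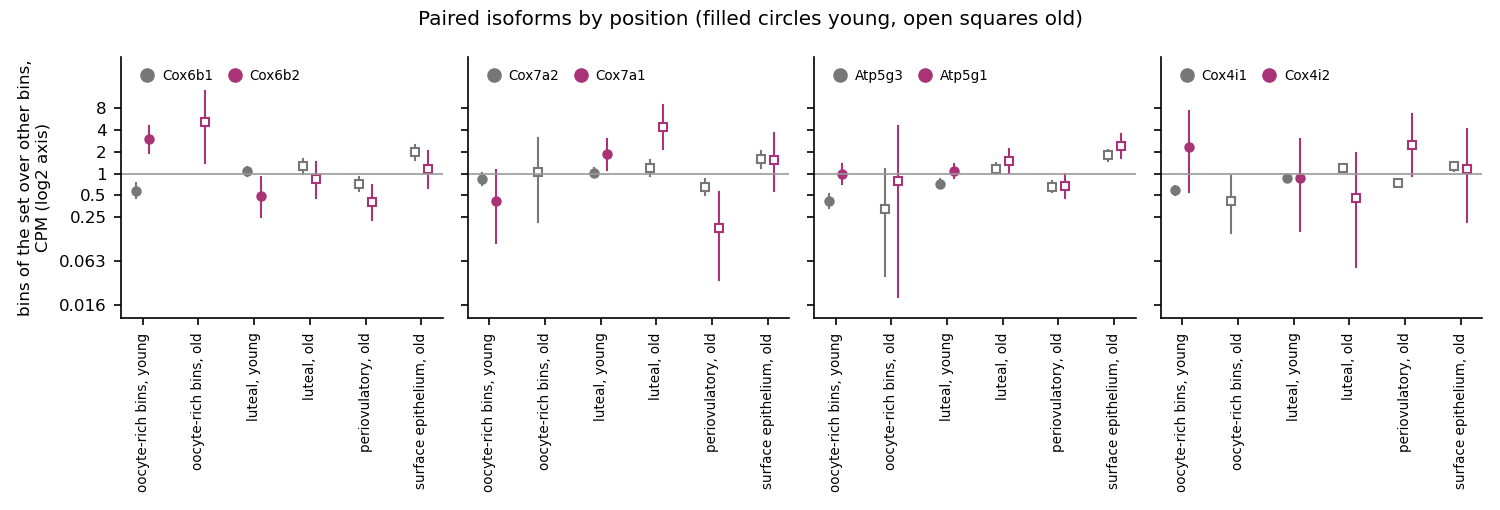
Paired isoforms in sets of bins over all other bins, on a log2 axis with 95% counting intervals, filled circles for the young and open squares for the old section. Cox6b2 lies above and Cox6b1 below 1 in young oocyte-rich bins, and Cox7a1 reaches 4.35 in the old luteal zone and 0.177 in the periovulatory one. Genes with no counts in a set have no point.

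Several members have near-identical processed copies elsewhere in the genome, and how the authors' counting treated reads that match more than 1 place was not given in the sources used here. Levels of such genes are uncertain for that reason, among them Cox7c, with 195 young and 89 old counts, Atp5l, with 149 and 55, and Cox5b, of which a named copy was counted apart. Counts were not divided by gene length, so levels are compared between sections and regions and not between genes.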

How the data were processed

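Each deposited table gave raw counts per gene and bead, with bead positions in a second file. The authors aligned to mm10, per the submitters' processing notes, while their aligner, counter, bead filter and use of molecular barcodes were not given in the sources used here. Counts were summed over all beads with counts or over bins, divided by the total and given in CPM. Ratios carry exact conditional binomial (Clopper-Pearson) intervals. With 1 library per age no test was made. The values of 1 member enter the sums and counts but are left out of the text and plots of single genes. Python 3.11.15, numpy 2.4.6 and scipy 1.17.1 were used, and the code was tested on simulated data. Members, marker lists and gene lists were chosen with earlier results of these data known. Named genes were, per complex, among members with at least 50 counts in 1 section, the 2 most abundant and those of highest and lowest ratio, the isoform families, the extremes of each gene list, and the highest and lowest luteal ratio among members with at least 50 counts in that zone. Alternatives changed the beads kept, scaling, weights, bin size, depth, size that counts, genes and quadrants. Promoter windows came from RefSeq (GRCm38.p6), without those on chromosome 18, and motifs were matched exactly on both strands.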

Additional observations from a re-analysis of the deposited data

Results flagged for a closer look

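The summed members lay on opposite sides in the luteal zone of bins: 0.914 times the level of the other bins in the young section and 1.14 times in the old. Their intervals did not overlap, and the difference between the sections was not tested. Names that end in -ps were left out of the members, but they had counts: Ndufb1-ps had 403 young and 234 old counts, and Cox5b-ps had 49 and 55.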

How the results depend on the processing

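The members and each complex kept their side of 1 between the sections under the alternatives given here, while in shallower bins complex III was at 0.910 (0.760 to 1.09) at 500 to 1000 counts and 0.989 (0.904 to 1.08) at 1000 to 2000, and complex II at 1.02 (0.753 to 1.38) at 500 to 1000. Of the luteal, granulosa and oocyte zones, the granulosa and oocyte ones crossed 1. Trimmed-mean scaling, which moved all genes by 0.0588 on the log2 scale, put the summed ratio at 0.884, complex I at 0.832, III at 1.09, IV at 0.865 and V at 0.909. With bins weighted equally the members were at 0.905 and complex V at 0.922, and outside the luteal and steroid-forming zones the members were at 0.897, complex I at 0.838 and V at 0.914. Bins of 2000 to 4000 counts, an alternative chosen after seeing the data like the inner bins and the classes of bin depth, gave 0.935 for the members, 0.796 for complex II, 0.938 for IV and 0.977 for V. Medians of the genes' ratios were 0.846 for complex I, 1.20 for III, 0.962 for IV and 0.973 for V. Without the most abundant gene the members were at 0.908, complex I at 0.841, III at 1.04, IV at 0.835 and V at 0.992, and structural subunits alone at 0.938. A size of 2-fold left 1 higher and 1 lower member, and the size tried below 1.5-fold left 18 and 26. Shares of all genes were taken at 1.5-fold only, so the counts at these other sizes were not compared with those of all genes. The luteal ratio of the young section was 0.851 in the highest 10% of bins, 0.888 in bins of 8 spacings and 0.896 within classes of bin depth, and that of the old section 1.06 with each bin thinned to 500 counts. The granulosa ratio of the young section was 0.964 in the highest 10%, 1.04 and 1.02 in bins of 3 and 8 spacings, 1.03 without the list's own counts, 0.955 thinned and 1.09 within classes of bin depth, and that of the old section 1.11 in the highest 10%, 1.08 within classes of bin depth and, reversed, 0.959 thinned. The oocyte ratio of the young section was 0.745 in the highest 10%, 0.863 in bins of 8 spacings, 0.925 within classes of bin depth and, reversed, 1.03 thinned. Thinning gives shallow bins the same weight as deep ones, and the cause of each reversal was not tested. Leaving out each quadrant in turn gave 0.883 to 0.963 for the members, 0.823 to 0.920 for complex I, 0.862 to 0.950 for II, 1.10 to 1.18 for III, 0.854 to 0.936 for IV and 0.917 to 0.976 for V, 6 to 7 higher and 12 to 16 lower members, and 0.887 to 0.939 for the young and 1.08 to 1.20 for the old luteal ratio, 0.888 to 1.06 and 0.975 to 1.05 for the granulosa and 0.865 to 0.922 for the oocyte one. The granulosa values of 0.888 and 0.975 came without the young and the old quadrant of low x and high y. For the sums, the counts of members and the luteal, granulosa and oocyte ratios, 43 of 112 values under other settings moved and 2 reversed. Without a quadrant 35 of 84 moved and 1 reversed. A move is one beyond the counting interval, or beyond 1.5-fold for the counts of members. For the genes named, 8 of 210 values under other settings and 5 of 240 without a quadrant moved by more than their counting interval, and 0 of those whose interval left out 1 reversed. No paired analysis was possible because each age has 1 library and the libraries share no replicate number. Depth limits the sparse isoforms most, with 19 and 22 counts of Cox4i2.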
